A study of Mus musculus with 6 samples.

Results

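Epithelial junction genes encode the proteins that tie neighbouring epithelial cells together, and their levels were compared between thymic medullary epithelial cells of mice with and without Aire. The set was chosen by gene symbol alone: the numbered claudins, cadherins, desmogleins, desmocollins and Tjp scaffold genes, the connexin genes Gja and Gjb, and Ocln, Pkp1, Pkp3, Dsp and Jup. It holds 75 of the 19938 genes with a probe set that names 1 gene: 31 of tight junctions, 23 cadherins, 11 of desmosomes and 10 of gap junctions. A further 8 probe sets that name several genes, among them one shared by Dsg1a, Dsg1b and Dsg1c, were left out.

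The arrays were hybridised with 3 RNA samples of Aire-/- mice (Aire KO) and 3 of mice labelled Aire WT. All mice were on the (B6xNOD)F1 background and 4 to 6 weeks old. Each sample, named KO1 to KO3 and WT1 to WT3 by its labelled replicate number, is called a mouse here. The sample titles do not say whether mice were pooled. Cells were sorted for high MHC class II and intermediate Ly51 without CD45, and their RNA was amplified in 2 rounds. The labels name no Cre driver. Values are log2 intensities on a whole-transcript mouse array, differences are the KO mean minus the WT mean, and signals of different probe sets are not compared with each other because each has its own response.

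Epithelial cells use 4 kinds of contact. Tight junctions seal the space between cells through claudins and occludin, which are held by the Tjp scaffolds. Adherens junctions bind cells through classical cadherins and catenins, and desmosomes bind them through desmogleins and desmocollins, linked by plakoglobin, plakophilins and desmoplakin to keratin filaments. Gap junctions are channels of connexins that let small molecules pass between cells. In the thymus, Cldn3 and Cldn4 mark the medullary lineage from which Aire-expressing cells arise.

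Aire itself gave log2 intensities of 12.38, 12.41 and 12.42 in the Aire KO mice, against 12.00, 11.92 and 11.99 in the Aire WT mice, a difference of 0.44 (SE 0.08, limma adjusted p = 0.0017). Aire was thus not lower in the mice labelled Aire KO. The extent of the deletion is not labelled and the probes were not placed along the gene, so the genotype could not be checked from this signal, and every direction given here rests on the labels. Array medians lay between 92.9 and 98.2 on the linear scale. Over all tested genes 14.1% were called lower and 12.0% higher, the background for each marker list here and below. Of 13 medullary epithelial markers all were bright enough to test: 3 fell (Epcam, Krt5 and Krt14), 2 rose (Aire and Relb) and 8 were not called, with a median difference of 0.06. Cldn3 and Cldn4, both not called, belong to this list and to the junction set. The other 11 had a median of 0.10. Epcam, the epithelial adhesion molecule, stood at 10.73 ± 0.14 in Aire KO mice and 11.10 ± 0.14 in Aire WT mice (SD, n = 3 each). Of 7 tested cortical epithelial markers 3 rose (Prss16, Ccl25 and Tbata) and 1 fell (Enpep), while the cortical protease subunit gene Psmb11 lay under the intensity filter on all arrays. The summed linear intensity of these 8 ran from 7740 to 8210 in Aire KO mice and from 6090 to 6870 in Aire WT mice. Ccl25 and Tbata, the brightest of them, weigh most in this sum, and its part in the junction results was not tested. Enpep encodes Ly51, on which the cells were sorted. Its signal was 6.27 ± 0.10 in Aire KO mice and 7.26 ± 0.01 in Aire WT mice (SD, n = 3 each, limma adjusted p = 6.4e-06). The part of this difference in the junction results was not tested. Of 7 tested thymocyte and T cell markers 1 fell (Cd3g) and 0 rose. Cd3g gave 7.08, 7.68 and 6.59 in Aire KO mice, against 8.18, 8.04 and 9.32 in Aire WT mice, highest in WT3. The 8 with a probe set include Themis, which was dim. Their summed linear intensity ran from 675 to 944 in Aire KO mice and from 929 to 1620 in Aire WT mice. Its part in the junction results was not tested. Of 3 tested B cell markers 3 rose, while Ms4a1 and Cd79a were dim, at -0.48 and -0.11. Of 7 tested dendritic cell and macrophage markers 3 fell and 1 rose. Adgre1, 1 of those that fell, passed the filter on Aire WT arrays alone, so it had to differ. Cd68, which rose, had overlapping groups. The leukocyte gene Ptprc, also among those that fell, encodes CD45, which was used to exclude cells in the sort. It stood at 6.47 ± 0.29 in Aire KO mice and 7.09 ± 0.35 in Aire WT mice (SD, n = 3 each).

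Most junction genes did not pass the test, and those that did moved in both directions by modest amounts. Of the 75, 51 lay above the intensity filter, a log2 value of 5.97 in at least 3 of the 6 arrays, and 24 were set aside as dim. Among the 51, 10 fell and 6 rose in the limma fit (adjusted p under 0.05, Benjamini-Hochberg over all genes tested), and 35 were not called. That is 31.4% called, against 26.1% of all 13925 genes tested (14.1% lower and 12.0% higher), so the share is near the background. The median difference of the 51 was -0.02, and that of all tested genes 0.02. Over all 75 genes, dim ones included, the median was 0.02.

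Changes of 1.5-fold or more were found for 5 of the 51, namely Cdh9, Dsg3, Dsp, Gjb2 and Dsc2, and such changes were called for 7.04% of all tested genes. Dsg3 passed the filter on Aire WT arrays alone, so its place among them was set in part by the filter. The groups did not overlap for 20 of the 51, against 42.4% of all tested genes. The number called lower, 10 with all mice, was 6 when WT3, KO1 or KO3 was left out. The 35 that were not called had differences between -0.28 and 0.20, and the outermost bounds of their 95% intervals were -0.52 and 0.42. In sorted cells measured in bulk, fewer cells of a type and less RNA per cell cannot be told apart.

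**Figure D1:**
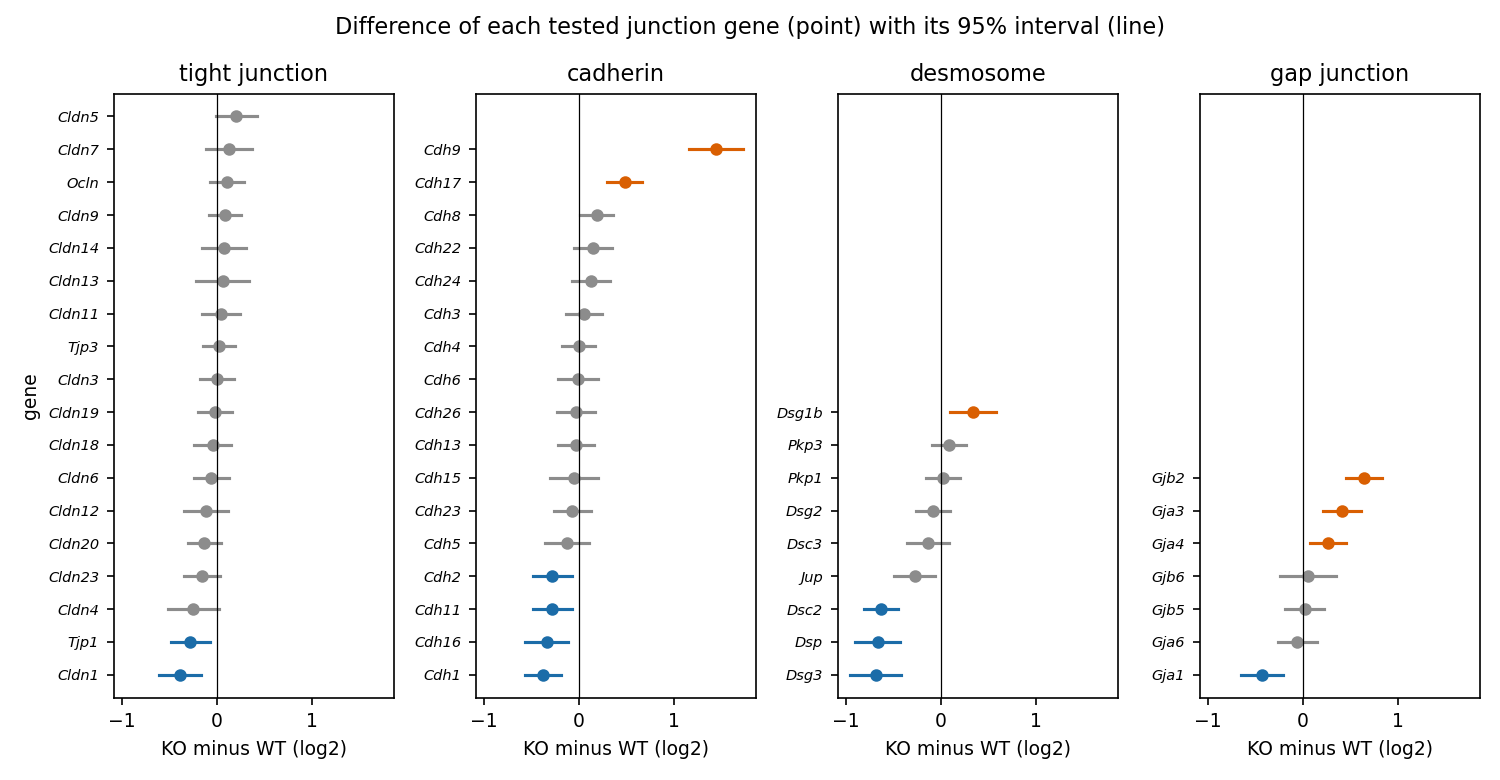
Difference in log2 intensity (x axis, KO minus WT) of the 51 tested junction genes (y axis), in 1 panel per junction type, with 95% intervals as lines; orange points are higher in Aire KO, blue points lower and grey points not called. Cdh9 stands alone at 1.44, and of 18 tight junction genes only Cldn1 and Tjp1 are coloured.

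**Figure D2:**
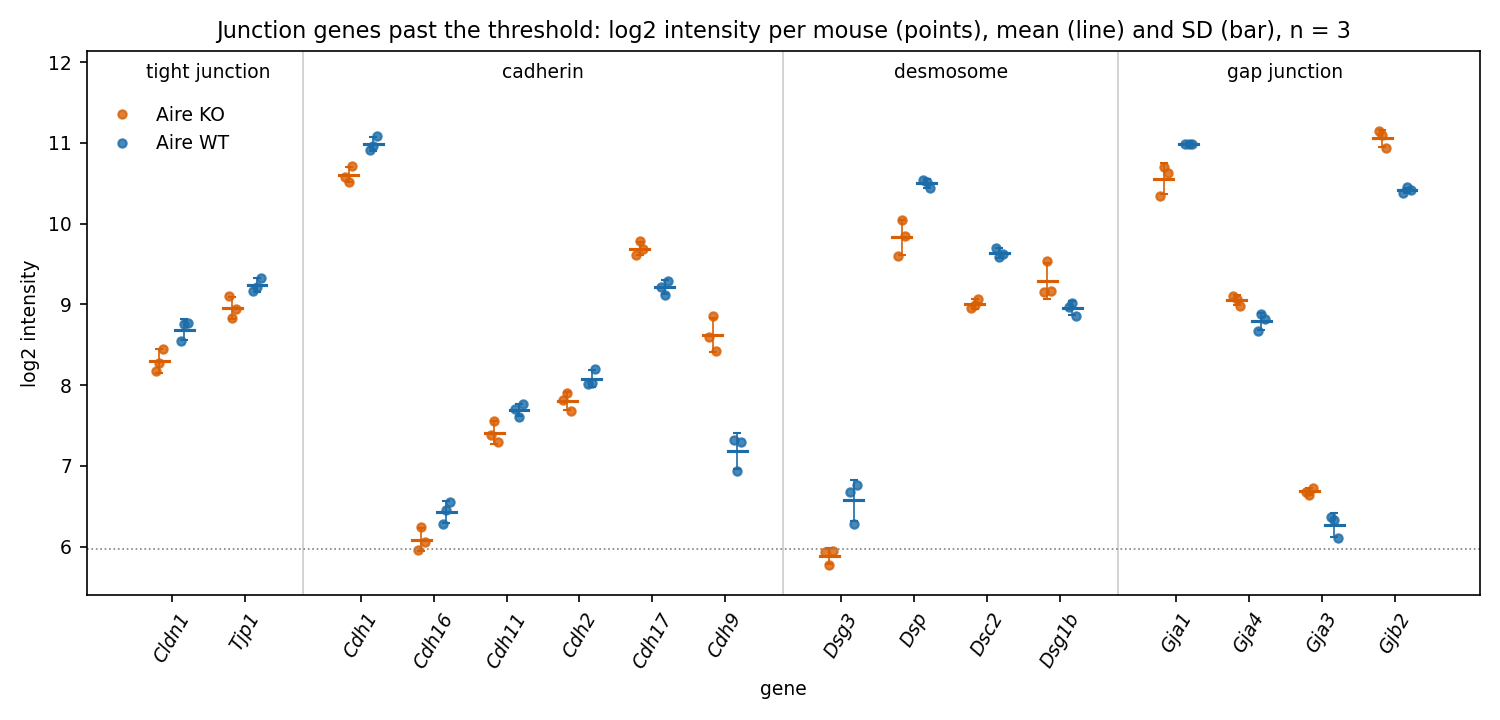
Log2 intensity (y axis) of the 16 called junction genes (x axis), with 1 point per mouse, Aire KO in orange to the left and Aire WT in blue to the right; lines are means and bars SDs of 3 mice, and the dotted line is the intensity filter. The 3 Aire KO mice lie wholly above or below the 3 Aire WT mice for each of the 16 genes, which were chosen by the test on these same values. The groups did not overlap for 42.4% of all tested genes. All 3 Aire KO mice lie under the filter for Dsg3.

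The stretch of 250 bases before the transcription start is shown for 6 genes: the neighbouring connexin genes Gjb2 and Gja3 and the cadherin gene Cdh9, which rose, Dsp and Gja1, which fell, and Cldn4, a lineage marker that was not called. They were chosen after the values were seen. Sequences are RefSeq's for build GRCm38.p6, read 5′ to 3′ on the gene's strand, and capitals mark matches to CAGGTG, the E-box bound by Snai and Zeb repressors, or to TGAGTCA, the AP-1 site of Jun and Fos proteins, on either strand.
Gjb2, chr14:57104703-57104952, minus strand: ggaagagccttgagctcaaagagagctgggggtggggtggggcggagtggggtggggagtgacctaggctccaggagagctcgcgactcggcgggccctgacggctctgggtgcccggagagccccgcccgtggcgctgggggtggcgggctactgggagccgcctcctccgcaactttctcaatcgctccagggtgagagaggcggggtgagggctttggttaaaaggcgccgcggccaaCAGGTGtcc
Gja3, chr14:57058031-57058280, minus strand: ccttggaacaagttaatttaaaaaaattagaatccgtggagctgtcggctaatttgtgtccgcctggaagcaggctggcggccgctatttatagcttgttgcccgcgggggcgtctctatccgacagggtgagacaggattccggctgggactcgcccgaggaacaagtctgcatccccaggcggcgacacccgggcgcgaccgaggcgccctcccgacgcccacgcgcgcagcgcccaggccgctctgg
Cdh9, chr15:16728665-16728914, plus strand: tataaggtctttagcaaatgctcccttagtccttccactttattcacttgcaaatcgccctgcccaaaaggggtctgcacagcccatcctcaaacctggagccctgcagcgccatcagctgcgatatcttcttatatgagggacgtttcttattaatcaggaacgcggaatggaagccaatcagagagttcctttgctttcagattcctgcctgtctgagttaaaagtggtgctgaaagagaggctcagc
Dsp, chr13:38151044-38151293, plus strand: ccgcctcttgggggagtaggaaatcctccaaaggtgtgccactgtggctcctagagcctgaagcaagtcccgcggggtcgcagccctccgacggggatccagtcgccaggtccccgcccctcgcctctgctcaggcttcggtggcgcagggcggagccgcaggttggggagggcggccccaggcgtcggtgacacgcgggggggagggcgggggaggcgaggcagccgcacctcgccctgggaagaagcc
Gja1, chr10:56377050-56377299, plus strand: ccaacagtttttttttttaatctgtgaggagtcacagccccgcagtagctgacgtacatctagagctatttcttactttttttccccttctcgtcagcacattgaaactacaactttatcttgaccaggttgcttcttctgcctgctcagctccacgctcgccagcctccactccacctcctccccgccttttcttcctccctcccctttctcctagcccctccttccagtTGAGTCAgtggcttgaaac
Cldn4, chr5:134946935-134947184, minus strand: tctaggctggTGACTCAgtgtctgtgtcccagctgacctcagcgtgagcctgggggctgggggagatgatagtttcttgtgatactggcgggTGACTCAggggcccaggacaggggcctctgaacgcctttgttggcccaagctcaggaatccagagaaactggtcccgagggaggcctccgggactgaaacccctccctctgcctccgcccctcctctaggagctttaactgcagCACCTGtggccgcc
These windows differed in base composition. G and C made up 69.2% of the Gjb2 window, 62.8% of that of Gja3 and 72.4% of that of Dsp, against 48% for Cdh9 and 50% for Gja1, while the median of all 32851 promoters was 52.4%. CpG pairs numbered 18, 26 and 22 in the first 3, and 6 each in Cdh9 and Gja1, which is also the median of all promoters. The Cldn4 window held 1 E-box and 2 AP-1 matches, that of Gjb2 held 1 E-box and that of Gja1 held 1 AP-1 match. Promoters were on hand for 50 of the 75 genes, with 66 starts, because 25 had no entry. The E-box stood in 18.2% of the 66 windows and in 17.2% of all windows of that length, and the AP-1 site in 6.06% and 4.46%. Of the 8 called genes with a promoter, Gja3 and Gjb2 held the E-box and Gja1 the AP-1 site. The Gja3 match lies at its other annotated start, which is not printed. A match is a run of letters and not a measured binding site.

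Of 18 tight junction genes tested, 2 fell, 0 rose and 16 were not called, and the median difference was -0.01. That is 11.1% called, against 26.1% of all tested genes, a gap that was not tested. Cldn1, a sealing claudin needed for the water barrier of skin, gave 8.17, 8.27 and 8.45 in Aire KO mice, against 8.54, 8.75 and 8.77 in Aire WT mice. It fell 1.31-fold (log2 difference -0.39, SE 0.10, limma adjusted p = 0.015). The call was lost without KO1, at a difference of -0.33 (limma adjusted p = 0.071). Tjp1, which encodes the scaffold ZO-1, gave 9.10, 8.83 and 8.94 in Aire KO mice, against 9.16, 9.22 and 9.33 in Aire WT mice. The groups lay close without overlap, and Tjp1 fell 1.21-fold (log2 difference -0.28, SE 0.09, limma adjusted p = 0.045). Its call was lost without WT1 (limma adjusted p = 0.057), WT2 (0.081), WT3 (0.10), KO2 (0.14) or KO3 (0.12).

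The claudins that mark medullary epithelium were not called. Cldn3 gave 9.14, 9.09 and 9.26 in Aire KO mice, against 9.17, 9.21 and 9.11 in Aire WT mice, and the groups overlapped. The difference was -0.002, with a 95% interval from -0.18 to 0.18. Cldn4, whose gene lies next to that of Cldn3, gave 11.97, 11.75 and 12.18 in Aire KO mice, against 12.23, 12.39 and 12.03 in Aire WT mice. The mice spread widely in both groups and overlapped, and the difference of -0.25 had an interval from -0.52 to 0.02 (limma adjusted p = 0.15). Cldn7, a claudin of many simple epithelia, gave 10.13, 9.80 and 10.09 in Aire KO mice, against 9.92, 10.01 and 9.71 in Aire WT mice, with an interval from -0.11 to 0.37. Cldn13, which mice have and humans lack, gave 10.54, 10.03 and 10.30 in Aire KO mice and 10.33, 10.30 and 10.05 in Aire WT mice, again with overlap.

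Occludin (Ocln), a strand protein that is not a claudin, stood at 8.78 ± 0.09 in Aire KO mice and 8.67 ± 0.04 in Aire WT mice (SD, n = 3 each), with an interval of the difference from -0.07 to 0.29. Tjp3, a scaffold related to Tjp1, gave 9.52, 9.47 and 9.54 in Aire KO mice, against 9.46, 9.47 and 9.54 in Aire WT mice. These groups overlapped, and the interval ran from -0.15 to 0.19. Cldn5, the claudin of endothelium, was at 0.20 (interval -0.02 to 0.42), Cldn23 at -0.16 and Cldn20 at -0.14, and none of them was called. Cldn20 passed the filter on Aire WT arrays alone. The other 7 tested claudins, Cldn6, Cldn9, Cldn11, Cldn12, Cldn14, Cldn18 and Cldn19, had overlapping groups and differences between -0.11 and 0.08.

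Among the cadherins, Cdh9 gave the largest difference of the 51 tested junction genes. Of 17 tested, 4 fell, 2 rose and 11 were not called, with a median of -0.03. That is 35.3% called, against 26.1% of all tested genes. Cdh9, a cadherin best known from neurons, gave 8.60, 8.85 and 8.42 in Aire KO mice, against 7.32, 6.93 and 7.29 in Aire WT mice. The lowest Aire KO mouse lay more than 1 log2 unit above the highest Aire WT mouse. Cdh9 rose 2.72-fold (log2 difference 1.44, SE 0.13, limma adjusted p = 1.2e-05). Cdh17, the cadherin of liver and intestine, gave 9.61, 9.78 and 9.68 in Aire KO mice, against 9.21, 9.12 and 9.29 in Aire WT mice. It rose 1.39-fold without overlap (log2 difference 0.48, SE 0.09, limma adjusted p = 0.0018).

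Cdh1, E-cadherin, the main adhesion receptor of epithelial adherens junctions, gave 10.58, 10.52 and 10.71 in Aire KO mice, against 10.91, 10.96 and 11.08 in Aire WT mice. It was lower in each Aire KO mouse than in any Aire WT mouse (log2 difference -0.38, SE 0.09, limma adjusted p = 0.0085). Cdh16, the kidney cadherin, gave 5.96, 6.24 and 6.05 in Aire KO mice, against 6.28, 6.45 and 6.55 in Aire WT mice, near the filter on all arrays. It fell 1.27-fold (limma adjusted p = 0.029), and the call was lost without WT2 (limma adjusted p = 0.067), WT3 (0.079), KO1 (0.12) or KO3 (0.091).

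Cdh2, N-cadherin, gave 7.81, 7.90 and 7.68 in Aire KO mice, against 8.01, 8.03 and 8.20 in Aire WT mice. Cdh11, a cadherin of mesenchyme, gave 7.38, 7.56 and 7.29 in Aire KO mice, against 7.70, 7.61 and 7.76 in Aire WT mice. Both groups of mice were separate but close, and Cdh2 fell 1.21-fold (limma adjusted p = 0.044) and Cdh11 1.22-fold (limma adjusted p = 0.045). The Cdh2 call was lost without WT1 (limma adjusted p = 0.057), WT2 (0.063), WT3 (0.10), KO1 (0.10) or KO3 (0.16). The Cdh11 call was lost without WT1 (limma adjusted p = 0.10), WT3 (0.10), KO1 (0.13) or KO3 (0.17). Of 8 other tested markers of fibroblasts and mesenchyme 2 fell (Fn1 and Col1a1) and 1 rose (Dcn). The summed linear intensity of the 9 such markers, Lum included as dim, ran from 2780 to 3240 in Aire KO mice and from 2880 to 3260 in Aire WT mice. Their part in the Cdh2 and Cdh11 results was not tested.

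The count of cadherins called lower was 4 with all mice. With WT1 or WT2 left out it was 2, and with WT3, KO1 or KO3 left out it was 1. Cdh3, P-cadherin of basal epithelial cells, stood at 8.03 ± 0.09 in Aire KO mice and 7.98 ± 0.09 in Aire WT mice (SD, n = 3 each). It overlapped between groups, and its interval ran from -0.14 to 0.25. Cdh5, the cadherin of endothelium, was at -0.13 (interval -0.36 to 0.10). Cdh8, a neuronal cadherin, was not called at 0.19 (limma adjusted p = 0.11), though its groups did not overlap. The remaining 8 cadherins not called, Cdh4, Cdh6, Cdh13, Cdh15, Cdh22, Cdh23, Cdh24 and Cdh26, had differences between -0.07 and 0.15.

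Among the desmosome genes, Dsp and Dsc2 fell by more than 1.5-fold with signals well above the filter, and Dsg3 fell with Aire KO signals under it. Of 9 tested, 3 fell, 1 rose and 5 were not called, with a median of -0.13. That is 44.4% called, against 26.1% of all tested genes, but 9 genes are few and the gap was not tested. Dsp, desmoplakin, which ties the desmosome to keratin filaments, gave 9.60, 10.04 and 9.85 in Aire KO mice, against 10.54, 10.52 and 10.44 in Aire WT mice. The Aire KO mice were more spread than the Aire WT mice but all lay lower, and Dsp fell 1.59-fold (log2 difference -0.67, SE 0.11, limma adjusted p = 0.00092). Dsc2, a desmocollin of most desmosomes, gave 8.95, 8.99 and 9.07 in Aire KO mice, against 9.70, 9.58 and 9.62 in Aire WT mice. With little spread in either group, it fell 1.55-fold (log2 difference -0.63, SE 0.08, limma adjusted p = 0.00019).

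Dsg3, the desmoglein of deep layers of stratified epithelium and the antigen of pemphigus vulgaris, gave 5.93, 5.77 and 5.95 in Aire KO mice, against 6.68, 6.28 and 6.76 in Aire WT mice. It fell 1.61-fold (log2 difference -0.69, SE 0.12, limma adjusted p = 0.0017). Dsg3 passed the filter on Aire WT arrays alone, so it had to differ, and background limits its fold. Dsg1b, one of the mouse genes for the desmoglein of upper epidermis, gave 9.15, 9.54 and 9.17 in Aire KO mice, against 8.97, 9.02 and 8.85 in Aire WT mice. One Aire KO mouse stood above the other two, and Dsg1b rose 1.26-fold (log2 difference 0.34, SE 0.11, limma adjusted p = 0.045). Leaving out that mouse, KO2, gave 0.21 and ended the call (limma adjusted p = 0.14). It was also lost without WT1 (0.077), WT2 (0.055), WT3 (0.12) or KO3 (0.055), which leaves 0 desmosome genes called higher in each of these fits. Dsg1b may share probe sequence with its near copies Dsg1a and Dsg1c, which was not tested.

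Plakoglobin (Jup), which serves desmosomes and adherens junctions, gave 9.63, 9.67 and 9.54 in Aire KO mice, against 9.79, 9.81 and 10.08 in Aire WT mice. The groups did not overlap, but the difference of -0.28 missed the threshold (SE 0.10, limma adjusted p = 0.055). Dsg2, the desmoglein of simple epithelia, gave 10.56, 10.70 and 10.62 in Aire KO mice, against 10.71, 10.77 and 10.66 in Aire WT mice, with an interval from -0.27 to 0.09. The plakophilin genes Pkp1 and Pkp3, whose products link plakoglobin to desmoplakin, were close between groups. Pkp2, a plakophilin gene outside the symbol rule, rose and is given below. Pkp1 gave 9.68, 9.69 and 9.70 in Aire KO mice and 9.56, 9.72 and 9.72 in Aire WT mice, with an interval from -0.16 to 0.20. Pkp3 was at 0.08 (interval -0.10 to 0.26), and Dsc3, a desmocollin of basal layers, at -0.13 (interval -0.35 to 0.09). Markers of keratinocytes, in which desmosomes are abundant, were lower beside these genes: all 9 tested fell, 1 of them having passed the filter on Aire WT arrays alone, and the summed linear intensity of the 11 with a probe set ran from 1880 to 2170 in Aire KO mice and from 4870 to 5320 in Aire WT mice. Of the 11, Flg2 and Lce3c were dim. The part of these markers in the desmosome results was not tested.

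Gap junction genes moved in both directions. Of 7 tested, 3 rose, 1 fell and 3 were not called, with a median of 0.05. That is 57.1% called, against 26.1% of all tested genes, but 7 genes are few and the gap was not tested. Gjb2, a connexin of skin, cochlea and liver, gave 11.14, 11.10 and 10.93 in Aire KO mice, against 10.38, 10.45 and 10.41 in Aire WT mice. It rose 1.56-fold, clear of the spread between mice (log2 difference 0.64, SE 0.08, limma adjusted p = 0.00021). Gja1, the most widely expressed connexin, gave 10.34, 10.70 and 10.63 in Aire KO mice, against 10.99, 10.98 and 10.99 in Aire WT mice. The Aire WT mice were nearly alike, and Gja1 fell 1.35-fold (log2 difference -0.43, SE 0.10, limma adjusted p = 0.0085). Gja3, a lens connexin, gave 6.68, 6.64 and 6.72 in Aire KO mice, against 6.37, 6.33 and 6.10 in Aire WT mice, all near the filter. It rose 1.33-fold (log2 difference 0.41, SE 0.09, limma adjusted p = 0.0070).

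Gja4, a connexin of arterial endothelium and oocytes, gave 9.10, 9.07 and 8.98 in Aire KO mice, against 8.67, 8.88 and 8.82 in Aire WT mice. It rose 1.20-fold (log2 difference 0.26, SE 0.09, limma adjusted p = 0.046). Its call was lost without WT1 (limma adjusted p = 0.16), WT3 (0.057), KO1 (0.15), KO2 (0.099) or KO3 (0.073). Other endothelial markers gave 0 lower and 1 higher (Egfl7) of 5 tested, with Kdr, Tie1 and Emcn dim. The summed linear intensity of these 8 ran from 571 to 645 in Aire KO mice and from 602 to 638 in Aire WT mice. Their part in the Gja4 result was not tested. Gjb6, often paired with Gjb2 in one channel, gave 7.86, 8.18 and 7.91 in Aire KO mice and 7.77, 7.77 and 8.24 in Aire WT mice. It was not called (interval -0.24 to 0.35), nor were Gjb5 at 0.02 and Gja6 at -0.06. The median of the 7 was 0.21 without WT3, in which Gjb6 was the highest of the 6 values.

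The 24 dim genes had log2 values between 3.37 and 6.30 and differences between -0.47 and 0.23. They were Cldn2, Cldn8, Cldn10, Cldn15, Cldn16, Cldn17, Cldn22, Cldn24, Cldn34-ps, Cldn34b2, Cldn34b3, Cldn34b4 and Cldn34c4, Cdh7, Cdh10, Cdh12, Cdh18, Cdh19 and Cdh20, Dsg1c and Dsg4, and Gja5, Gja10 and Gjb1. With no intensity filter, 2 of them passed the test and both were lower. Cldn2, which forms cation pores in leaky epithelia, gave 4.91, 5.01 and 4.96 in Aire KO mice, against 5.51, 5.42 and 5.34 in Aire WT mice. Its difference was -0.47 (SE 0.08, limma adjusted p = 0.0023 in that fit). Cldn10, another pore-forming claudin, was at 5.14 ± 0.12 in Aire KO mice and 5.59 ± 0.18 in Aire WT mice (SD, n = 3 each, limma adjusted p = 0.012 in that fit). Its other probe set differed by -0.25. These signals are so low that background limits their size.

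Junction genes that lie next to each other did not all move together. On chromosome 14, Gja3 and Gjb2 are adjacent protein-coding genes in the RefSeq order and both rose (0.41 and 0.64), while Gjb6, on the other side of Gjb2, was at 0.05. On chromosome 15, Cdh9 rose by 1.44 between Cdh6 at -0.01 and the dim Cdh10 at 0.03. On chromosome 8, Cdh1 fell by 0.38 beside Cdh3 at 0.05, and Cdh11 fell by 0.28 between Cdh8 at 0.19 and Cdh5 at -0.13. The desmosomal cadherin cluster on chromosome 18 follows Cdh2, and held both directions: Dsc2 was at -0.63 and Dsg3 at -0.69, against 0.34 for Dsg1b. In the same cluster Dsc3 was at -0.13 and Dsg2 at -0.09, and neither was called. On chromosome 5, Cldn4 and Cldn3 are adjacent and neither was called.

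**Figure D3:**
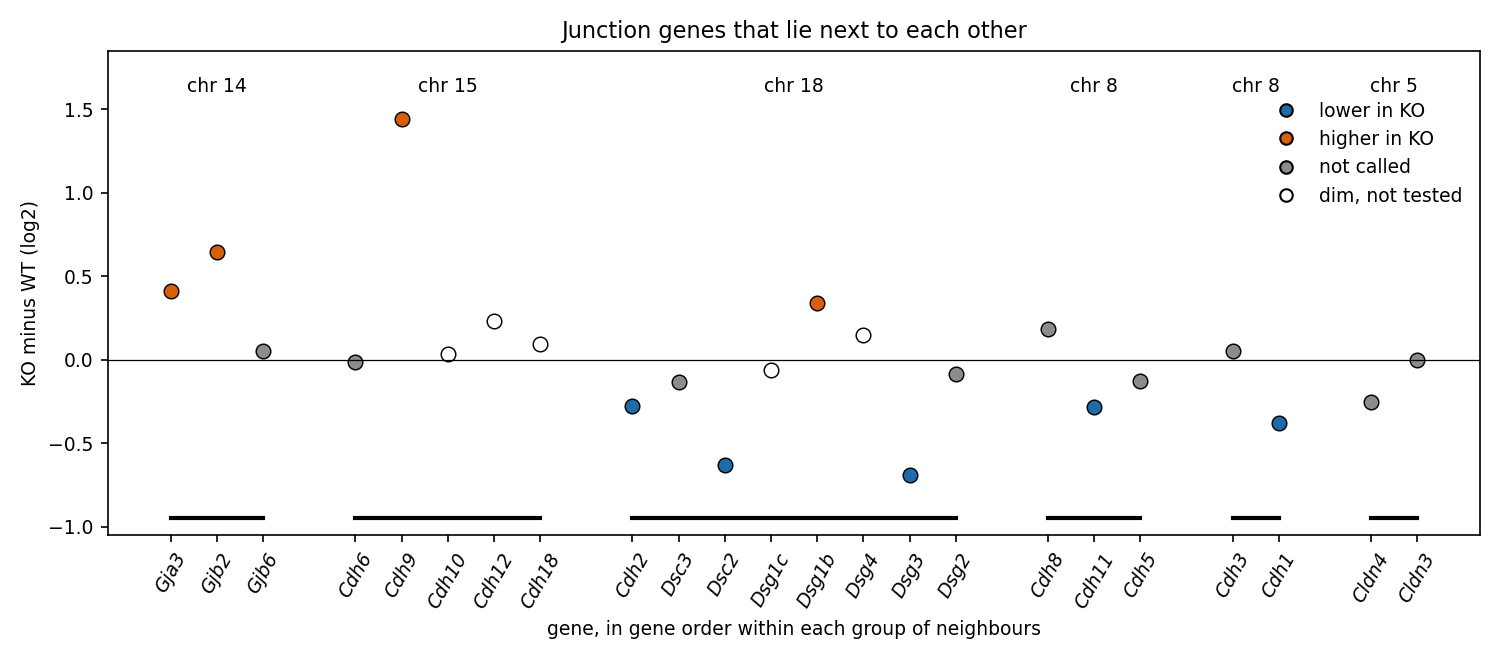
Difference in log2 intensity (y axis, KO minus WT) of junction genes in 6 groups of neighbours, in RefSeq gene order along the x axis; orange is higher in Aire KO, blue lower, grey not called and white too dim to test. Gja3 and Gjb2 stand above 0 beside Gjb6 near 0, and the chromosome 18 group holds points on both sides of 0.

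Proteins that work with these junctions but lie outside the symbol rule were listed by role. The background for each list is the 14.1% of all tested genes called lower and the 12.0% called higher. Of 27 tested tight junction partners, 4 fell and 3 rose, with a median of -0.10. Amotl2, which links junctions to actin, fell 1.42-fold to 7.48 ± 0.05 in Aire KO mice, against 7.99 ± 0.06 in Aire WT mice (SD, n = 3 each, limma adjusted p = 0.00083). The adhesion receptor Cxadr fell by 0.52 on the log2 scale and cingulin (Cgn), which binds the Tjp scaffolds, by 0.46. Prkcz, a kinase of the apical polarity complex, rose by 0.54.

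Of 17 tested adherens junction partners, 5 fell and 1 rose, with a median of -0.05. Afdn, which joins nectins to actin, fell by 0.51 and Ctnnd1, the catenin that keeps cadherins at the surface, by 0.41 (limma adjusted p = 0.0023 and 0.0037). Ctnna3, a catenin of heart muscle, rose by 0.49, and passed the filter on Aire KO arrays alone, so it had to differ. The core catenins that bind Cdh1 were not called: Ctnnb1 stood at 10.63 ± 0.09 in Aire KO mice and 10.68 ± 0.11 in Aire WT mice, and Ctnna1 at 10.67 ± 0.09 in both (SD, n = 3 each). Epcam fell by 0.37 (limma adjusted p = 0.021), and lost the call without WT3 (0.057), KO1 (0.092) or KO3 (0.060).

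Of 10 desmosome partners, 3 fell, 1 rose and 6 were not called. Perp, a membrane protein needed for desmosome assembly, gave 8.66, 8.85 and 8.94 in Aire KO mice, against 9.84, 9.72 and 9.83 in Aire WT mice. It fell 1.97-fold, far outside the spread between mice (log2 difference -0.98, SE 0.09, limma adjusted p = 1.8e-05). Krt5, a basal keratin that anchors at desmosomes, fell 1.80-fold and its partner Krt14 1.36-fold (limma adjusted p = 0.00047 and 0.012). The Krt14 call was lost without KO1 (0.057) or KO2 (0.052). Krt8 of simple epithelium was at 0.10 and not called. Pkp2, the plakophilin of heart and simple epithelia, rose 1.26-fold to 7.72 ± 0.04 in Aire KO mice, against 7.38 ± 0.02 in Aire WT mice (SD, n = 3 each, limma adjusted p = 0.0082).

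Of 8 tested hemidesmosome genes, which fix cells to the basement membrane, 1 fell and 0 rose. That was Lamb3, a laminin chain, with overlapping groups and a difference of -0.33 (limma adjusted p = 0.040). Its call was lost without WT1 (0.13), WT2 (0.11), KO1 (0.14) or KO3 (0.12). The integrin genes Itga6, at 0.04, and Itgb4, at -0.06, were not called. Of 3 other connexin and pannexin genes bright enough to test, 0 were called, and 6 were dim. Among the dim ones, Gje1 was at -0.83, Gjd4 at 0.59 and Panx3 at 0.44, each without overlap of the groups. Gjc1, Gjc3 and Gjd2 overlapped. Differences of such low signals were not tested.

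Among 18 tested regulators of junction genes, 4 fell and 2 rose, with a median of -0.04. Klf5, a transcription factor of proliferating epithelium, gave 7.98, 8.27 and 8.28 in Aire KO mice, against 8.96, 8.90 and 8.88 in Aire WT mice, and fell 1.66-fold (limma adjusted p = 0.00024). Esrp1, a splicing factor of epithelial cells, fell by 0.35 (limma adjusted p = 0.021), and lost the call without KO1 (0.080) or KO3 (0.072). The Ets factor Elf3 fell by 0.28 (limma adjusted p = 0.025), and lost the call with the replicate number as a block (0.053) or without WT2 (0.078), KO1 (0.080), KO2 (0.064) or KO3 (0.060). Grhl3, a grainyhead factor of epidermis, rose by 0.32 (limma adjusted p = 0.016), and lost the call without WT1 (0.056) or KO1 (0.075). Grhl2 of the same family fell by 0.35 (limma adjusted p = 0.028). Its call was lost without WT1 (0.055), WT3 (0.069), KO1 (0.12) or KO3 (0.080). Grhl1 was at -0.21 and not called. Of the Snai and Zeb genes, which encode repressors known from epithelial to mesenchymal change, Snai3 rose by 0.34 (limma adjusted p = 0.035), near the filter, at 6.20 ± 0.09 in Aire KO mice and 5.86 ± 0.19 in Aire WT mice (SD, n = 3 each). Its call was lost with an offset of 32 (0.055), with trended, robust variances (0.050), and on leaving out WT1 (0.073), WT3 (0.092), KO1 (0.051), KO2 (0.077) or KO3 (0.13). Zeb2 was dim, at 0.26, with groups that did not overlap. The others were not called: Snai1 was at 0.19 (interval -0.05 to 0.44), Snai2 at 0.00 (interval -0.34 to 0.34) and Zeb1 at -0.27 (interval -0.57 to 0.02).

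**Figure D4:**
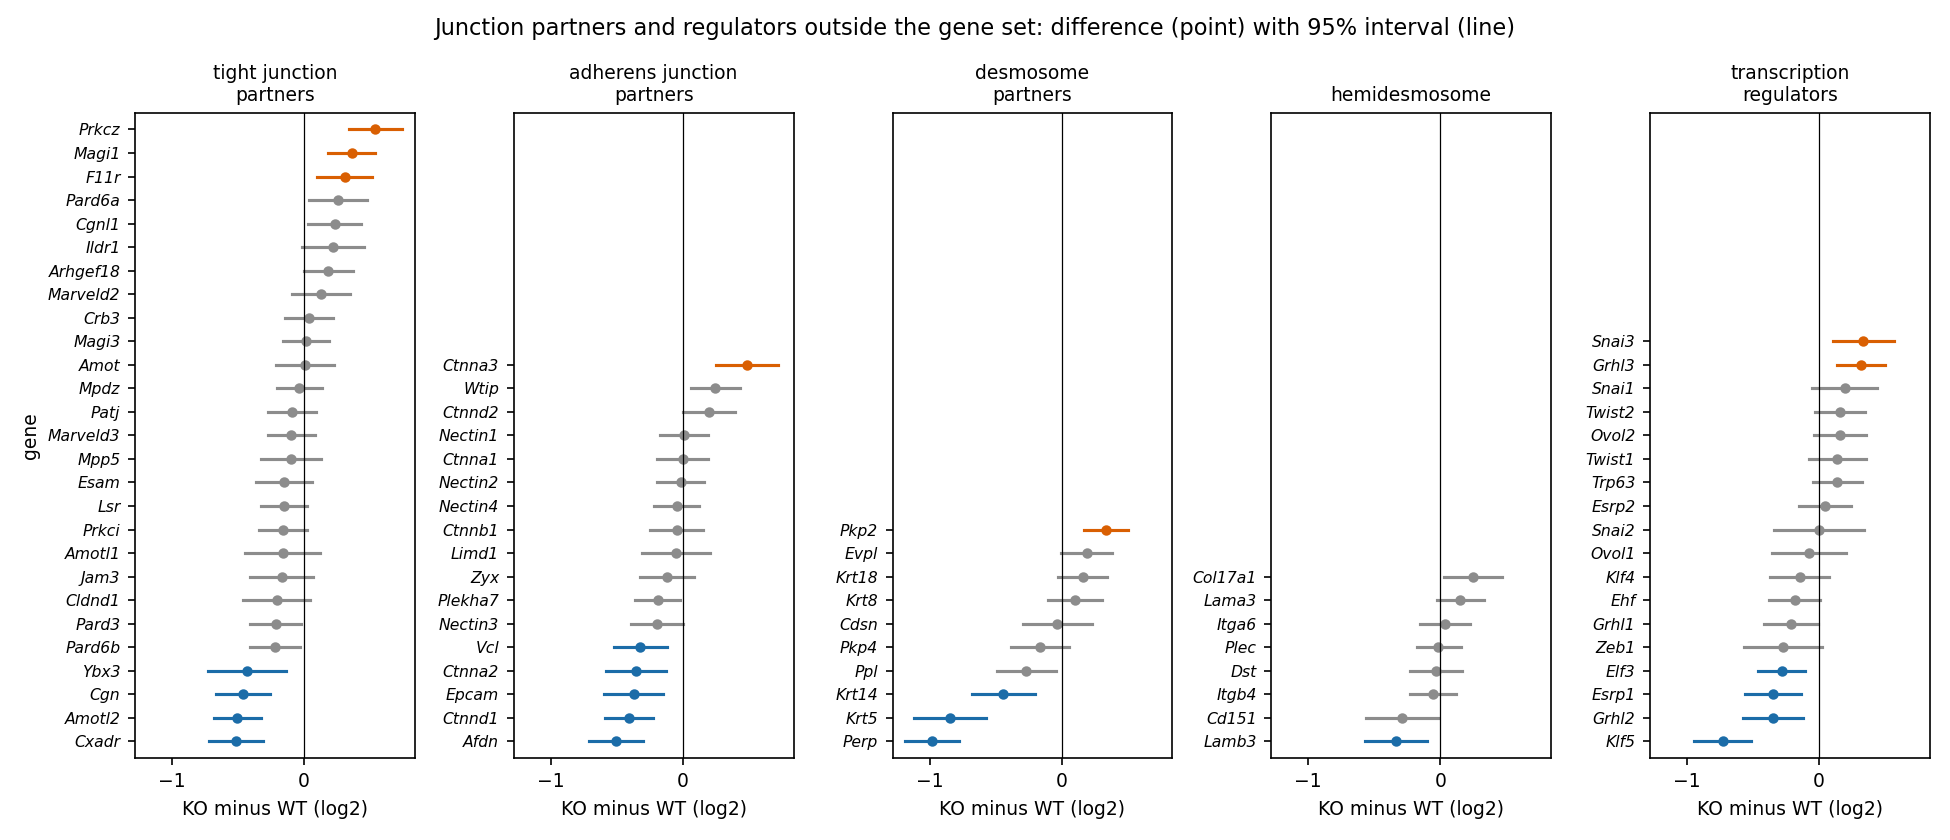
Difference in log2 intensity (x axis, KO minus WT) of tested junction partners and regulators outside the symbol rule (y axis), in 1 panel per list, with 95% intervals as lines; orange is higher in Aire KO, blue lower and grey not called. Perp at -0.98 and Krt5 at -0.84 lie lowest, and most points of the tight junction and hemidesmosome panels are grey.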

How the data were processed

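The 6 arrays of whole-transcript design, 3 Aire KO and 3 Aire WT, were grouped by sample title. The deposited values are linear intensities per probe set. RMA is the only tool named for them, per the submitters' processing notes, with no version or genome build. RMA puts the probe signals of all arrays on 1 distribution before they are summarised, which hides a change in total RNA. The deposited probe set values still differed, with array medians from 92.9 to 98.2.

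Log2 intensities (pseudocount 0) of the brightest 1-symbol probe set per gene were tested where at least 3 arrays exceeded 5.97, the 40th percentile. Tests were two-sided, in limma 3.58.1 under R 4.3.3 with genotype as the factor, adjusted by Benjamini-Hochberg over 13925 genes. SEs and 95% intervals are from that fit. It was tested on simulated data of 13925 genes, where it recovered 88% of changes of 0.5 (log2) and 100% of changes of 1, with 13 false calls. Changes under 0.5 were not simulated, and fewer genes were changed than were called in the data. RefSeq (GRCm38.p6) gave names, gene order and promoters. All 75 junction genes matched it.

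Members, lists and tests were chosen with earlier results of these data known. By rule the text names all members, with every array for those called and for the brightest of each type, up to 4 called partners per list by adjusted p, and core partners. Snai3, Zeb2, Grhl1, Grhl2, Relb, values of single markers and dim partners, and array values of further members were added after their results were seen. Alternatives changed the filter, centring, normalization, offset, choice of probe set, variance model and array weights, added the replicate number as a block, or left out 1 mouse. Labels name no batch, and p-values measure the spread between these mice.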

Additional observations from a re-analysis of the deposited data

How the results depend on the processing

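Of the 16 called junction genes, 9 kept their call under every alternative that tested them, 16 in all, or 15 for Dsg3 and Gja3, which the 60th percentile filter removed: Cdh1, Cdh9, Cdh17, Dsc2, Dsg3, Dsp, Gja1, Gja3 and Gjb2. The other 7 lost it under at least 1, and 0 changed sign. With no filter, Cdh2, Cdh11, Tjp1, Dsg1b and Gja4 were lost. Median centring ended the calls of Cdh2, Cdh11 and Tjp1, and array weights that of Dsg1b. Of the 35 not called, 1 was called under an alternative, Jup, with the 60th percentile filter (limma adjusted p = 0.046), another quantile normalization (0.032), an offset of 32 (0.038), trended, robust variances (0.038) and array weights (0.049). The median of tested junction genes was 0.018 with no filter, 0.010 with the 60th percentile filter, -0.006 with centring, -0.010 with another quantile normalization and -0.038 with array weights. The cadherin median was 0.034 with no filter and 0.024 with the 60th percentile filter. Cadherins called lower numbered 2 with no filter, centring or the replicate block, tight junction genes called lower 1 with centring or the replicate block, and desmosome genes called higher 0 with no filter or array weights. Without 1 mouse, 6 to 9 junction genes fell, their median lay between -0.033 and 0.003, 1 tight junction gene and 1 to 4 cadherins fell, 0 to 1 desmosome genes rose, and the gap junction median lay between 0.017 and 0.212 (without WT3). Over all genes, 1052 (without KO1) to 1547 rose in these fits.

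With the replicate number as a block, 7 junction genes fell and 5 rose (1742 and 1368 over all genes), and the calls of Cdh2, Cdh11, Tjp1 and Gja4 were lost. The labels do not say whether the numbers pair the mice. Deviations of same-numbered mice from their group means correlated at -0.018, -0.209 and -0.056 across genes. No mouse correlated best with the mouse of its own number. Deviations within a small group depend on each other, so these values cannot decide whether mice were paired. The causes were not tested. The number of arrays limits precision, and the files carry no detection call by which to judge background.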
